A study of Arabidopsis thaliana with 12 samples.

Results

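Roots of the Arabidopsis thaliana mutant dorn1-1 were compared with wild-type roots after both had been given ATP for 30 min. The comparison takes the 3 dorn1-1 ATP arrays and the 3 wild-type ATP arrays out of the 12 arrays of the study, and covers the 22746 probe sets that are left of 22810 when the array's own control sets are set aside. Wild type here means transgenic Col-0 plants that express aequorin, a protein that reports calcium. The mutant, in the Col-0 ecotype, carries a mutation induced by EMS (ethyl methanesulfonate, a chemical mutagen) in Lectin receptor kinase I.9. Whether it carries other EMS mutations, and whether it also expresses aequorin, is not given in the sources used here. All plants were 5-day-old seedlings grown with 1% sucrose, and each replicate was a pool of 120 of them kept overnight in the dark in one well with 2 mM MES and 10 mM CaCl2. The other 6 arrays are the same genotypes given MES buffer, again 3 each. The ATP dose is written as 100 mM in the sample titles and as 100 µM in the treatment protocol, so it is not settled here.

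ATP that leaks from wounded or stressed plant cells acts as a signal outside the cell. In Arabidopsis it is bound by the lectin receptor kinase affected in dorn1-1, and binding is followed by a rise of calcium in the cytosol, phosphorylation cascades and early induction of wound and defence genes. Calcium sensors with EF-hands, ubiquitin ligases and immune receptors are among the genes known to respond early to such danger signals. Ribosomal protein genes, in contrast, are known as a large group that growing tissue expresses together.

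Values are log2 signals on the RMA scale, a summary of all probes of a set, and array medians lay between 6.07 and 6.17. The labels name the tissue as root, and 9 nuclear photosynthesis transcripts, whose products work in green tissue, averaged between 8.57 and 11.44 over the 12 arrays. Of the root marker genes listed for this check, only the root hair expansins EXPA7 and EXPA18 were matched by symbol. In ATP they read 6.34 ± 0.34 and 6.09 ± 0.29 in wild type and 6.28 ± 0.40 and 6.10 ± 0.27 in dorn1-1 (SD, n = 3 each). Replicate 1 of the dorn1-1 buffer arrays stood apart, with a photosynthesis mean of 11.43 against 8.57 and 9.93 in the other two. The lowest correlation between arrays of a group was 0.968 there and at least 0.988 in the other groups. The mutated kinase gene was not analysed here. In RNA of whole organs, fewer cells of a type and less RNA per cell cannot be told apart.

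In ATP, 1065 probe sets were higher and 454 were lower in dorn1-1 than in wild type at a limma adjusted p under 0.05. These are 4.68% and 2.00% of those tested. An unadjusted p under 0.05 in limma was found for 4932 (21.7%) in either direction. Unadjusted counts in ATP given below are to be read beside that share. A change of at least 2-fold was seen for 127 of the higher and 109 of the lower ones (0.558% and 0.479%). The median log2 difference was 0.68 among the higher probe sets and -0.75 among the lower ones, against 0.01 over all probe sets. In each of the 1519 the arrays of the genotypes did not overlap, which over all probe sets was so for 17.1% in the higher and 9.89% in the lower direction. The balance of directions depended on scaling, since 70.1% of the calls were higher as deposited and 57.9% after cyclic loess normalization (867 higher, 630 lower). Single arrays also weighed on the count, which was 579 without wild-type ATP replicate 2, 272 without wild-type ATP replicate 3, 354 without dorn1-1 ATP replicate 2 and 2643 without dorn1-1 buffer replicate 1.

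The same genotypes in buffer give a second measurement on different arrays, although the fit shares one estimate of the spread. There 15 probe sets passed (0.0659%), 6 higher (0.0264%) and 9 lower (0.0396%) in dorn1-1, while 2935 (12.9%) had an unadjusted p under 0.05. Without dorn1-1 buffer replicate 1, the array that stood apart, 315 passed. Array weights gave 2568 calls, and the mean of the 9 photosynthesis transcripts as a term of the fit gave 338. The count was 2 without wild-type buffer replicate 1, 3 without wild-type buffer replicate 2, 5 and 4 without dorn1-1 buffer replicates 2 and 3, 26 without wild-type ATP replicate 2, 7 without wild-type ATP replicate 3 and 9 without dorn1-1 ATP replicate 2. Of the 1065 probe sets higher in dorn1-1 in ATP, 1026 were also higher in the mean in buffer, with a median log2 difference of 0.33 (quartiles 0.20 and 0.47). Of the 454 lower ones, 391 were also lower in buffer, with a median of -0.24 (quartiles -0.39 and -0.08). Over all probe sets 62.2% had the same sign in both. Unadjusted p-values under 0.05 in buffer in the same direction were found for 551 of the higher and 147 of the lower probe sets (51.7% and 32.4%). Over all probe sets 12.9% had one in either direction. Of the higher and lower ones 3 and 4 passed the adjustment. Without dorn1-1 buffer replicate 1 these were 726 and 152 unadjusted and 157 and 13 adjusted, and 1042 and 388 had the same sign.

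**Figure D1:**
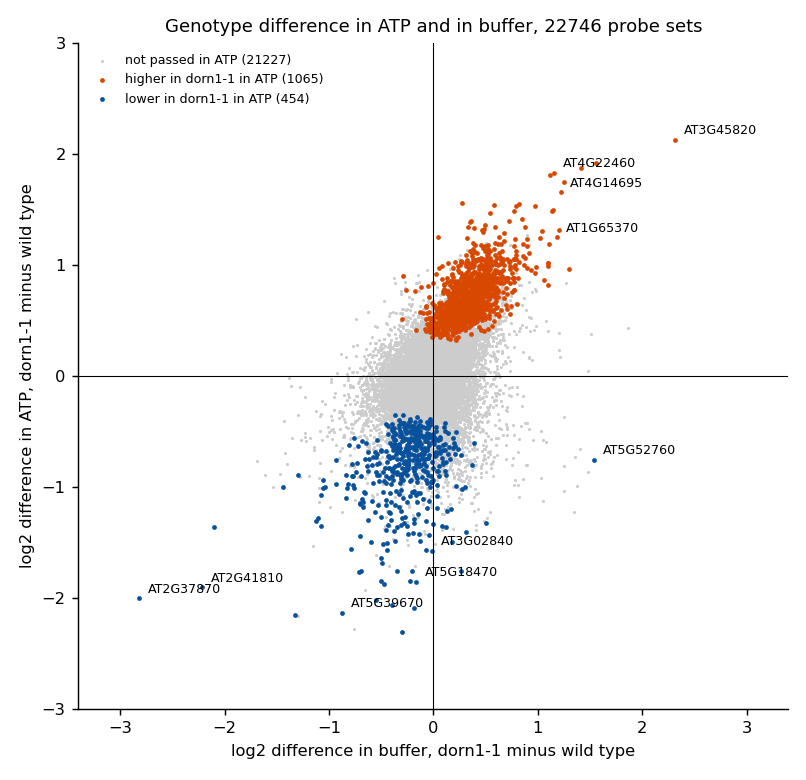
Log2 difference dorn1-1 minus wild type in ATP (vertical axis) against the same difference in buffer (horizontal axis), 1 point per probe set, orange where higher (1065) and blue where lower (454) in dorn1-1 in ATP at an adjusted p under 0.05. Most orange points lie right of 0 and most blue points left of 0, with AT5G52760 far to the right among the blue ones.

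Whether the difference in ATP exceeded that in buffer was tested as an interaction, which 2 probe sets passed (0.00879%) while 1585 had an unadjusted p under 0.05 (6.97%). AT3G02840, an armadillo-repeat gene, read 7.71, 7.97 and 7.81 in the wild-type ATP arrays and 6.44, 5.96 and 6.36 in the dorn1-1 ATP arrays. In buffer all 6 arrays lay between 5.70 and 5.76. The genotypes thus overlapped in buffer and stood apart in ATP, by a log2 difference of -1.58 (SE 0.13, limma adjusted p = 0.000521) and an interaction of -1.56 (limma adjusted p = 0.0215). AT5G52760, a gene of the heavy-metal-associated domain class, behaved otherwise: in ATP it read 5.95, 6.14 and 6.02 in wild type and 5.35, 5.31 and 5.18 in dorn1-1, but in buffer 4.19 ± 0.17 in wild type (SD, n = 3) and 5.92, 5.55 and 5.74 in dorn1-1. It was lower in the mutant in ATP (log2 difference -0.75, limma adjusted p = 0.00811) and higher in buffer (1.54, limma adjusted p = 0.000494), and the interaction was -2.30 (limma adjusted p = 0.000556).

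All gene classes from here on were chosen with earlier results of these data known, so their shares describe these data only. Among genes lower in dorn1-1 in ATP, a calcium sensor stood near the head of the ranking. The named gene with the largest fall is not described here. Second among named genes came AT5G39670, which encodes an EF-hand protein of the calmodulin-like family. It read 7.92, 8.33 and 7.97 in wild type and 6.26, 5.24 and 6.32 in dorn1-1, a 4.39-fold lower level (log2 difference -2.13, SE 0.31, limma adjusted p = 0.00555), and its difference in buffer was -0.88. All 3 mutant arrays lay more than a log2 unit below the lowest wild-type array. CML37, a calmodulin-like sensor, read 6.34, 6.77 and 6.50 in wild type and 5.09, 5.35 and 5.14 in dorn1-1, 2.54-fold lower (limma adjusted p = 0.00417). In buffer its wild-type arrays read 5.50, 5.04 and 5.23 and its dorn1-1 arrays 4.70, 5.08 and 5.06, so the genotypes overlapped there. Of 36 calmodulin and calmodulin-like genes measured, 4 were lower and 0 higher, against 1.80% and 4.51% of all 13355 named genes. The other two were AT3G25600 (log2 difference -0.80) and AT3G10300 (-0.63), both EF-hand genes. The class median was -0.14, so most members differed little, and 2 were lower without wild-type ATP replicate 2, wild-type ATP replicate 3 or dorn1-1 ATP replicate 2, and 8 without dorn1-1 buffer replicate 1. AT3G01830, a calmodulin-like gene named here after its values were seen, had a log2 difference of -1.04 in ATP that did not pass (limma adjusted p = 0.0852) and of 1.25 in buffer. Calcium channels and pumps had 0 of 8 members passing in either direction and 1 lower at an unadjusted p under 0.05, with a median of -0.06.

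TIR-domain resistance genes, which encode intracellular immune receptors or shorter relatives of them, had 11 of 71 measured members lower (15.5%, against 1.80% of all named genes). One other, AT5G45210, was higher (0.84), and 61 of 71 had a negative difference, with a median of -0.22. AT1G66090 read 7.14, 6.82 and 7.22 in wild type and 4.58, 4.43 and 5.88 in dorn1-1, 4.28-fold lower (log2 difference -2.10, SE 0.50, limma adjusted p = 0.0291). Its dorn1-1 replicate 3 lay above the other mutant arrays yet below all wild-type arrays. AT3G44630 read 6.97, 7.01 and 7.12 in wild type and 5.76, 5.30 and 5.76 in dorn1-1, with little spread in wild type (log2 difference -1.43, limma adjusted p = 0.0105). AT1G72900 and AT5G58120 were 3.67-fold and 2.87-fold lower. AT5G22690 and AT4G19510 differed less, by -1.06 and -0.71, but passed in every one of the 12 fits that left out 1 array. In buffer the class median was -0.11 and 0 members passed in limma. There 7 of 71 had an unadjusted p under 0.05, against 12.9% of all probe sets, so that count is no result about the class. The mean over the 71 genes was 4.84, 4.93 and 4.92 in the wild-type ATP arrays and 4.57, 4.43 and 4.58 in the dorn1-1 ATP arrays, and the buffer arrays lay between 4.42 and 4.67. Near-identical members of this family can share probes, so the 11 are not independent. Without wild-type ATP replicates 1, 2 or 3 the lower count was 7, 4 or 2, it was 2 without dorn1-1 ATP replicate 2, and it was 18 without dorn1-1 buffer replicate 1.

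Ubiquitin ligases came next. RING1, a RING-type ligase linked to programmed cell death, read 7.12, 6.68 and 6.96 in wild type and 5.56, 4.66 and 5.26 in dorn1-1, 3.39-fold lower (log2 difference -1.76, SE 0.33, limma adjusted p = 0.0111). The wild-type ATP arrays stood above all 9 other arrays, which lay between 4.44 and 5.95. AT2G42360, another RING-type gene, was 2.68-fold lower. PUB22 and PUB23, U-box ligases known to dampen immune signalling after pattern recognition, differed by -0.40 and -0.90 (limma adjusted p = 0.0443 and 0.0130). RING1, PUB22, PUB23 and ATL5 (-0.45) were the 4 lower of 13 U-box and RING genes matched by symbol (30.8%, against 1.80% of all named genes). In this class 0 were higher and the median was -0.14. Its median in buffer was -0.16, with 10 of 13 negative. There 0 passed in limma and 3 had an unadjusted p under 0.05, against 12.9% of all probe sets. AT2G42360 was not on that list and is not in its count. PUB22 passed in 2 and ATL5 in 3 of the 12 fits that left out 1 array. The lower count in ATP was 2 without any one wild-type buffer array, wild-type ATP replicate 1 or 2 or dorn1-1 ATP replicate 1 or 3. It was 1 without wild-type ATP replicate 3 and 0 without dorn1-1 ATP replicate 2. Of 5 pattern-triggered immunity genes measured, the 2 that passed were again PUB22 and PUB23. All 5 had a negative difference under both treatments, with a median of -0.51 in ATP and -0.32 in buffer, where 0 passed. The receptor EFR and the receptor-associated kinase BIK1 had differences of -0.51 and -0.51 that did not pass (limma adjusted p = 0.159 and 0.120).

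**Figure D2:**
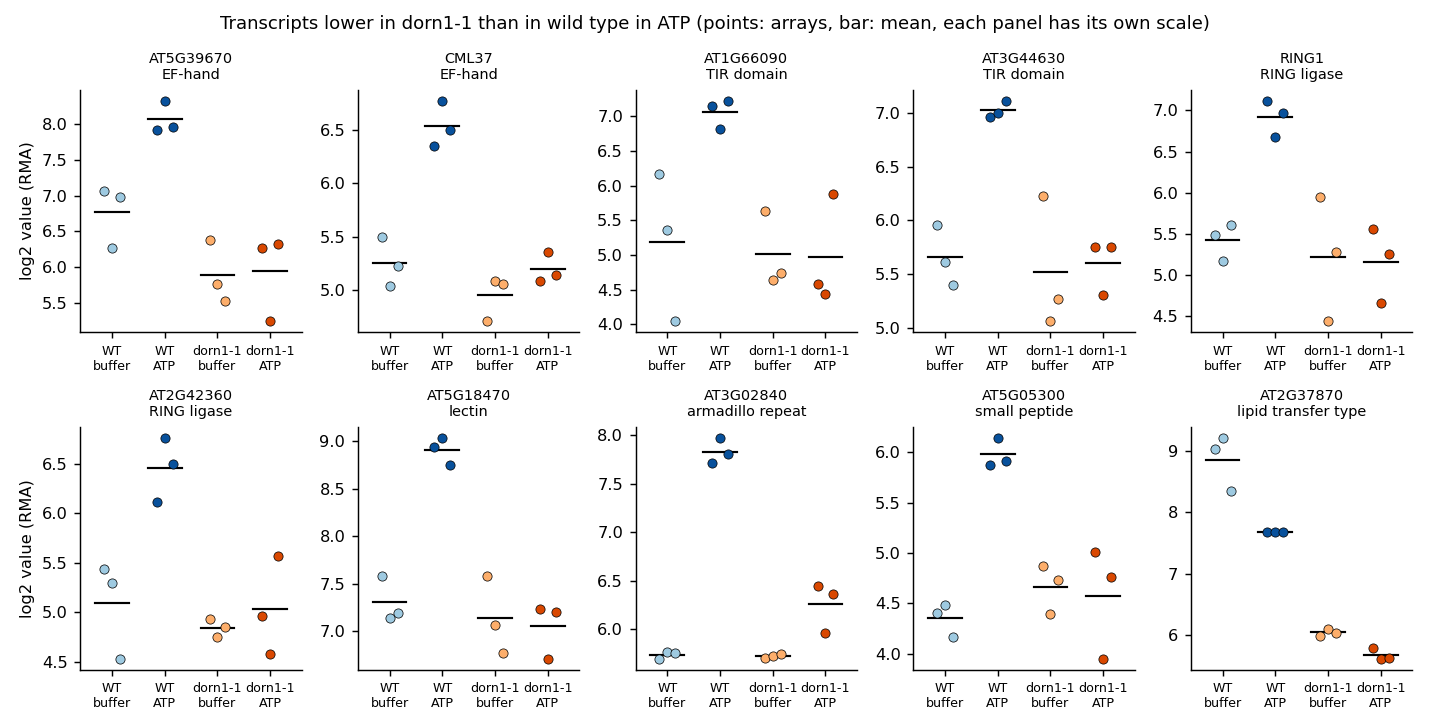
Log2 values of 10 genes lower in dorn1-1 in ATP, with 1 point per array and a bar at the mean of each of the 4 groups of 3. In 9 panels the wild-type ATP arrays (dark blue) stand above the other groups, while AT2G37870 is lower in dorn1-1 in buffer as well.

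Other genes far down the ranking encode surface or signalling proteins. AT5G18470, a gene for a curculin-like lectin, read 8.94, 9.03 and 8.75 in wild type and 7.24, 6.71 and 7.20 in dorn1-1, 3.61-fold lower (SE 0.21 on the log2 scale, limma adjusted p = 0.00366). In buffer it read between 6.77 and 7.58 in both genotypes, with overlap. AT5G05300 and AT3G10930, which encode small peptides of the IDA-like kind, were 2.65-fold and 2.32-fold lower, AT3G10930 being chosen after its values were seen. AT5G05300 lay between 5.88 and 6.14 in wild type and between 3.95 and 5.01 in dorn1-1. The ankyrin-repeat genes AT1G14480 and AT1G10340 were 3.38-fold and 2.97-fold lower, the flotillin-like gene AT5G64870 was 2.64-fold lower and the GDSL lipase gene AT1G28600 was 2.82-fold lower. Genes singled out after their values were seen include the zinc finger repressor STZ (-0.90), the tetraspanins TET8 (-0.91) and TET9 (-0.86), the receptor kinase gene FER (FERONIA, -0.68), the MATE transporter gene AT1G61890 (-1.34) and the matrix metalloproteinase gene AT1G24140 (-1.12). FER read 10.17, 10.61 and 10.46 in wild type and 9.71, 9.54 and 9.95 in dorn1-1, a small gap without overlap. Only 6 WRKY factors, regulators of defence genes, were matched here by symbol, and members without a matched symbol were not looked at. Of the 6 matched, 0 passed. At an unadjusted p under 0.05 in limma 1 was higher and 2 were lower, against 21.7% of all probe sets in either direction. WRKY22 came closest, with a log2 difference of -0.66 (limma adjusted p = 0.103).

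Some of the 391 probe sets lower under both treatments had large differences in buffer. AT2G37870, of the lipid transfer protein type, read 7.68 in each of the 3 wild-type ATP arrays and 5.79, 5.61 and 5.63 in the mutant ones, 4.02-fold lower (log2 difference -2.01, SE 0.18, limma adjusted p = 0.000886). In buffer it read 9.03, 9.21 and 8.34 in wild type and 5.99, 6.09 and 6.04 in dorn1-1, a difference of -2.82. The wild type thus covered a wide range and the mutant a narrow one. AT2G41810, of the DUF642 family of cell wall proteins, differed by -1.90 in ATP and -2.22 in buffer, and OCT1, an organic cation transporter chosen after its values were seen, by -1.36 and -2.11. SWEET11, of the sugar exporter family, differed by -1.36 in ATP and -1.08 in buffer, and SWEET3, of the same family, read 6.77, 6.95 and 6.72 in wild type and 6.21, 5.63 and 5.59 in dorn1-1 in ATP and differed by -1.44 in buffer. They were the 2 lower ones among 15 sugar transport genes (13.3%, against 1.80% of all named genes). In the wall, the expansin-like genes EXLA1 (-1.15) and EXLA3 (-0.97) were the 2 lower of 19 expansins (10.5%), and differed by -0.70 and -0.93 in buffer. CSLC04 (-1.01) and CSLD2 (-0.65), with -0.76 and -0.25 in buffer, were the 2 lower of 8 cellulose synthase family genes. XTH18 (-0.71), which differed by 0.27 in buffer, was the 1 lower of 9 xyloglucan endotransglucosylases. These small counts rested on single arrays. The sugar transport, expansin, cellulose synthase and xyloglucan endotransglucosylase counts were each 0 without wild-type ATP replicate 2, wild-type ATP replicate 3 or dorn1-1 ATP replicate 2. Without wild-type ATP replicate 1 the sugar transport and xyloglucan endotransglucosylase counts were 0, and without dorn1-1 ATP replicate 1 the cellulose synthase count was 0 and the expansin count 1. Without dorn1-1 ATP replicate 3 the counts were 1, 1, 1 and 0 in the order given. Leaving out a wild-type buffer array gave a sugar transport count of 1, and leaving out dorn1-1 buffer replicate 3 gave a sugar transport count of 1 and a xyloglucan endotransglucosylase count of 2. The expansin count was 1 without wild-type buffer replicate 1, the cellulose synthase count was 1 without wild-type buffer replicate 3, and the xyloglucan endotransglucosylase count was 0 without wild-type buffer replicate 1 or 2. The expansin gene EXPB1 lay on the higher side (1.17, limma adjusted p = 0.0512).

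Among the genes higher in dorn1-1, those for cytosolic ribosomal proteins formed the largest class counted. Of 128 measured genes from a list of 220, 73 were higher and 0 lower (57.0% against 4.51% of all named genes). The median log2 difference was 0.48 (quartiles 0.31 and 0.59), and 124 of 128 were positive. Genes of both subunits were among them: 26 of 47 genes of the small subunit and 47 of 81 of the large subunit were higher, with medians of 0.50 and 0.47. The 128 genes stand for 59 ribosomal proteins, and for 47 of these at least 1 gene was higher. Where 2 or more genes of a protein were measured, in 44 cases, every copy was higher for 12, some copies for 25 and none for 7. Copies with low signal are in these counts, such as AT5G43640 for S15, with a wild-type ATP mean of 2.17.

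AT4G30800, which encodes ribosomal protein S11, read 7.85, 7.31 and 7.28 in wild type and 8.50, 9.17 and 8.83 in dorn1-1, 2.56-fold higher (log2 difference 1.35, SE 0.21, limma adjusted p = 0.00671). AT3G06680, for L29, read 9.81, 9.42 and 9.27 in wild type and 10.44, 10.73 and 10.70 in dorn1-1 (1.12, limma adjusted p = 0.00476). The lowest mutant array exceeded the highest wild-type array for both. AT5G15520 for S19, AT3G44590 for the stalk protein P2 and AT2G20450 for L14 differed by 1.06, 0.95 and 0.89. At the other end, AT2G39590 (S15a, -0.11), AT3G10950 (L37a, -0.08), AT5G09490 (S15, -0.07) and AT3G51190 (L8, -0.05) were the 4 with a negative difference, none of which passed. AT3G10950, AT5G09490 and AT3G51190 had low signal, with wild-type ATP means of 2.41, 3.11 and 3.96. The median level of the class there was 10.76. Whether such low copies are expressed is not known here. The class mean was 9.97, 9.82 and 9.80 in the wild-type ATP arrays and 10.31, 10.43 and 10.31 in the dorn1-1 ATP arrays. In buffer the means were 10.11 to 10.14 in wild type and 10.26 to 10.43 in dorn1-1. The genotypes therefore did not overlap under either treatment, and the gap was 0.49 in ATP and 0.21 in buffer. In buffer 0 members passed in limma and the median was 0.19. There 46 of 128 had an unadjusted p under 0.05, against 12.9% of all probe sets. In ATP the higher count was 33 without wild-type ATP replicate 2, 19 without wild-type ATP replicate 3 and 26 without dorn1-1 ATP replicate 2. The median in ATP stayed between 0.43 and 0.55 over the 12 such fits. Copies of one protein can share probes, so their counts are not independent.

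**Figure D3:**
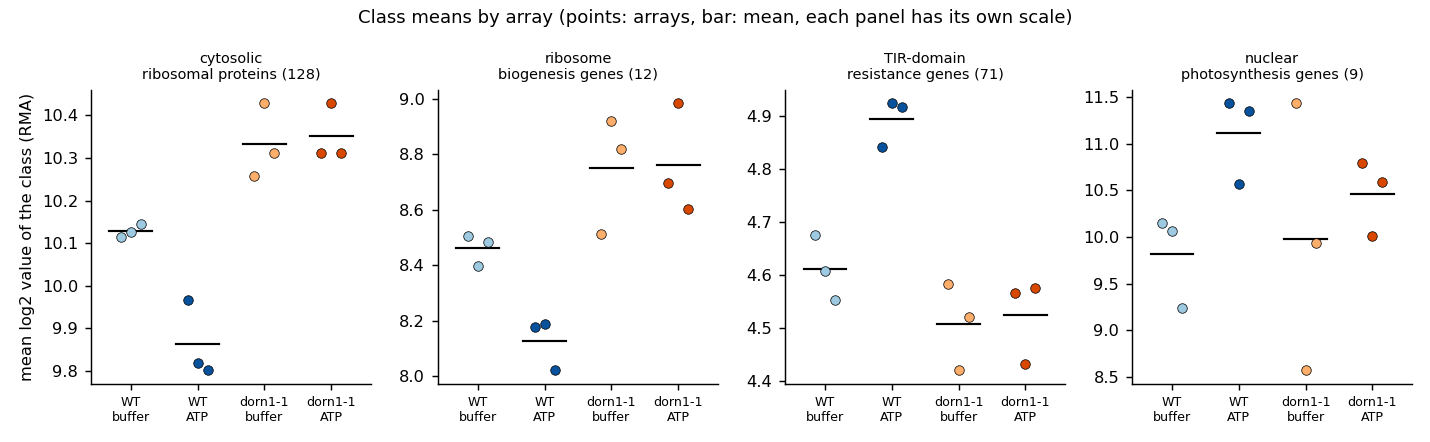
Mean log2 value of 4 gene classes in each of the 12 arrays, with a bar at each group mean. Ribosomal protein and ribosome biogenesis means are lowest in wild-type ATP arrays, TIR-domain means are highest there, and photosynthesis means of the genotypes overlap under each treatment.

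Genes that build and serve ribosomes were higher as well. Of 12 ribosome biogenesis genes, 7 were higher (58.3%, against 4.51% of all named genes) and 0 lower, with a median of 0.65. In buffer all 12 were positive (median 0.27) and 0 passed. AT3G15460, of the BRX1 type needed for the large subunit, read 6.80, 6.70 and 6.63 in wild type and 7.56, 8.03 and 7.56 in dorn1-1, 2.01-fold higher (limma adjusted p = 0.00813). Its close relative AT1G52930 differed by 0.80, AT5G08180, of the NHP2 type found in small nucleolar particles, by 0.92, and AT3G57000, of the EMG1 methyltransferase type, by 0.64. The count was 3 without wild-type ATP replicate 3 and 4 without dorn1-1 ATP replicate 2. The CCT chaperonin, a ring of different subunits that folds tubulin and actin, had 4 of 8 subunit genes higher (50%, against the same 4.51%) and 0 lower, and all 8 were positive (median 0.51). In buffer all 8 were positive as well (median 0.10) and 0 passed. The theta subunit gene AT3G03960 read 9.26, 9.18 and 9.14 in wild type and 9.87, 10.24 and 10.02 in dorn1-1, 1.80-fold higher (limma adjusted p = 0.00671). The beta subunit gene AT5G20890 lay at 10.13, 10.05 and 10.03 against 10.74, 10.73 and 10.72, with hardly any spread in the mutant. In the fits without wild-type ATP replicate 2, wild-type ATP replicate 3 or dorn1-1 ATP replicate 2, 2 subunits passed. Also higher, and chosen after their values were seen, were the calreticulin gene CRT1b (1.09), the tubulin gene TUB1 (1.21) and HLL (1.06), which encodes a mitochondrial ribosomal protein. Complex I of the respiratory chain had 1 of 24 genes higher, AT3G06310 (0.41), a share of 4.17% that is no more than the 4.51% of all named genes. That count was 0 with the photosynthesis mean in the fit, after cyclic loess, after median centring and in the fit of the 6 ATP arrays. It was also 0 in 10 of the 12 fits without 1 array, those without dorn1-1 buffer replicate 1 or 2 being the exceptions. Still, 23 of the 24 differences were positive (median 0.25, against 0.01 over all probe sets). At an unadjusted p under 0.05 in limma, 9 genes were higher and 0 lower, against 21.7% of all probe sets in either direction.

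Genes of chromatin and cell division shared the direction, in small lists drawn up after the data were seen. HTB1, a histone H2B gene, read 8.07, 7.82 and 7.74 in wild type and 8.77, 9.20 and 8.81 in dorn1-1, 2.07-fold higher (limma adjusted p = 0.00755). With HTR12, the centromeric histone H3 gene (0.75), and HTB11 (0.50), it made 3 of 6 histone genes higher and 0 lower, where 4.51% of all named genes were higher. In buffer 5 of the 6 were positive (median 0.17) and 0 passed. The aurora kinases AUR2 and AUR1 (0.89 and 0.84), which act in mitosis, and the checkpoint gene BUB3.1 (0.75) were the 3 higher of 8 cell division genes, whose median was 0.54. In buffer all 8 were positive too (median 0.31). There 0 passed in limma and 4 had an unadjusted p under 0.05, against 12.9% of all probe sets. AUR1 was 0.67 higher in buffer. Without wild-type ATP replicate 3 or dorn1-1 ATP replicate 2 the histone count and the cell division count were 1 each. Without wild-type ATP replicate 2 the histone count was 1 too, and without dorn1-1 buffer replicate 1 the cell division count was 5. Single genes chosen after their values were seen were the histone chaperone gene ASF1B (0.69), the topoisomerase gene TOPII (0.76), the DNA polymerase subunit genes POLA3 and POLD3 (0.64 and 0.70) and the RNA polymerase subunit genes NRPC2 (0.76), NRPB9B (0.72) and NRPB12 (0.70).

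**Figure D4:**
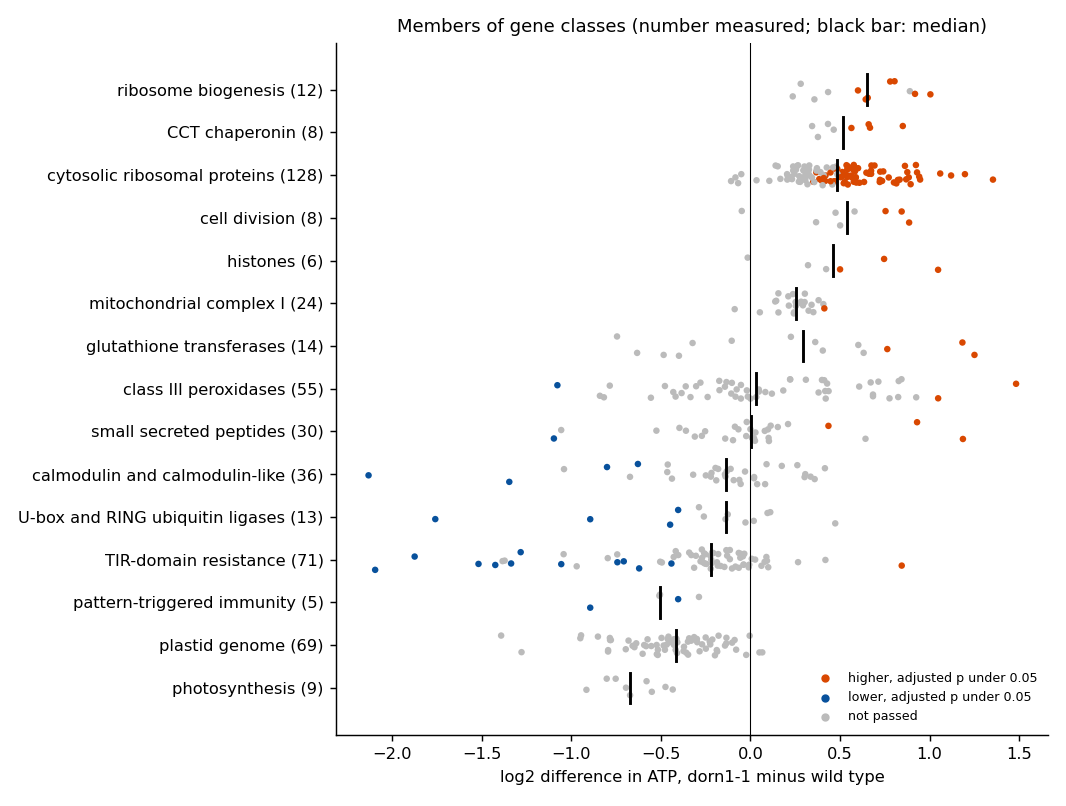
Log2 difference dorn1-1 minus wild type in ATP for each measured member of 15 gene classes, with orange for higher and blue for lower at an adjusted p under 0.05, grey for not passed and a black bar at the median. Ribosomal, biogenesis and chaperonin members lie almost entirely right of 0, TIR-domain members spread to the left, and no photosynthesis or plastid gene passed.

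Several of the largest single increases lay outside these classes, although AT4G30800 for S11 (1.35) exceeded some of those given here. AT3G45820, for which no class is given here, read 3.84, 3.80 and 3.79 in wild type and 6.83, 6.08 and 4.88 in dorn1-1, 4.36-fold higher (log2 difference 2.12, SE 0.35, limma adjusted p = 0.00811). In buffer it read 4.15, 4.03 and 3.66 against 6.38, 6.15 and 6.27, so it was high in all 6 mutant arrays, least so in dorn1-1 ATP replicate 3. AT1G65370, of the TRAF-like class, was likewise higher under both treatments, by 1.25 and 1.19. AT4G22460, of the lipid transfer protein type, read 5.95, 5.83 and 5.72 in wild type and 7.24, 8.14 and 7.61 in dorn1-1 (1.83, limma adjusted p = 0.00890). The dirigent genes AT4G11210 and AT4G11190, a class that guides lignan and lignin coupling, were 3.49-fold and 2.95-fold higher. AT4G14695, of the mitochondrial pyruvate carrier type, read 3.78, 3.57 and 3.50 in wild type and 5.01, 5.33 and 5.46 in dorn1-1, 3.14-fold higher (limma adjusted p = 0.00417). Further secreted or wall-associated types among the 20 largest were sks15, a multicopper oxidase-like gene (1.54), the cysteine protease gene AT3G43960 (1.53), the thaumatin-like gene AT1G73620 (1.34) and the pectin acetylesterase gene AT1G57590 (1.30). PPR596, a pentatricopeptide repeat gene for RNA processing in mitochondria, differed by 1.28.

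**Figure D5:**
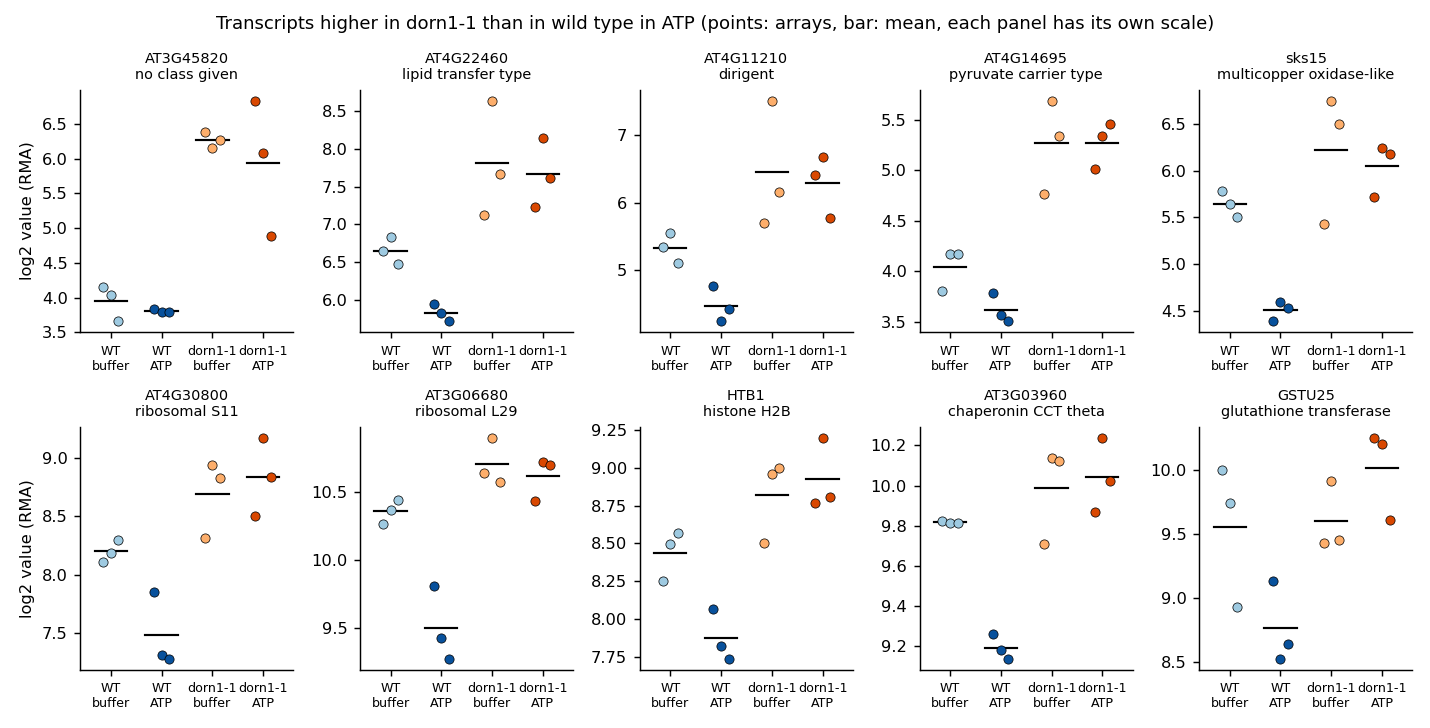
Log2 values of 10 genes higher in dorn1-1 in ATP, with 1 point per array and a bar at the mean of each of the 4 groups of 3. The wild-type ATP arrays (dark blue) lie below all dorn1-1 ATP arrays (dark orange) in every panel, and AT3G45820 is also high in dorn1-1 in buffer.

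Glutathione transferases, which conjugate reactive compounds, had 3 of 14 members higher (21.4%, against 4.51% of all named genes) and 0 lower (median 0.29). GSTU25 read 9.13, 8.52 and 8.64 in wild type and 10.25, 10.20 and 9.60 in dorn1-1, 2.38-fold higher (limma adjusted p = 0.0223), while in buffer the difference was 0.04. GSTU22 and ATGSTF13 differed by 0.76 and 1.18. The count was 0 without wild-type ATP replicate 2 or 3 or dorn1-1 ATP replicate 1 or 2, and 1 without wild-type buffer replicate 2 or dorn1-1 ATP replicate 3.

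Further classes had counts of 1 to 3 in a direction, to be read beside the 4.51% of all named genes that were higher and the 1.80% that were lower. Class III peroxidases, enzymes of wall stiffening and reactive oxygen, had 2 of 55 higher (3.64%), AT2G39040 (1.48) and AT3G01190 (1.05), and 1 lower (1.82%), AT1G34510 (-1.08), shares at the background. In the fit of the 6 ATP arrays 6 were higher and 0 lower. Leaving out 1 array gave 0 to 8 higher, the most without dorn1-1 buffer replicates 1 (8) and 2 (7), and 0 to 5 lower, the most without dorn1-1 buffer replicate 1. Small secreted peptides had 3 of 30 higher, the signal peptide gene RALFL27 (1.19) and the defensin-like genes PDF2.5 (0.93) and LCR68 (0.44), and 1 lower, PDF2.1 (-1.10). Their higher count was 0 without wild-type ATP replicate 3 or dorn1-1 ATP replicate 2, and 1 without wild-type ATP replicate 1 or 2 or dorn1-1 ATP replicate 1. Among 23 genes on the glucosinolate list, BCAT4 (0.87), of methionine chain elongation, and BGLU42 (0.65) were higher. BGLU42 was matched by symbol, and its role in that pathway was not checked. Single genes that passed were ATMYC1 (0.66) among 9 bHLH genes, BZIP61 (0.77) among 20 bZIP genes and IQD31 (0.46) among 15 IQ-domain proteins, which bind calmodulin. UGT73B1 (-0.59) was the 1 lower of 48 UDP glycosyltransferases. In these 5 classes the count was 0 in at least 2 of the 12 fits without 1 array, and such counts are no result about the classes.

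Several classes, as far as their members were matched here, had no member past the threshold in either direction. These were the 17 auxin genes (median -0.04), 6 abscisic acid and dehydration genes (-0.04), 3 gibberellin and brassinosteroid genes (-0.11), 22 cytochromes P450 (-0.14), 5 iron and zinc genes (0.08), 4 pectin enzymes (-0.22), 5 phenylpropanoid and flavonoid genes (-0.04), 4 redox enzymes (-0.18) and 3 heat shock proteins (0.39). At an unadjusted p under 0.05 in limma, 3 cytochromes P450, 1 gibberellin and brassinosteroid gene and 1 pectin enzyme were lower, 1 phenylpropanoid and flavonoid gene lay on each side, 1 heat shock protein was higher and 0 genes of the other 4 classes differed. Over all probe sets 21.7% had such a p-value in either direction, so these counts are no result about the classes. A miss with 3 arrays a group does not show equal levels. The pectin methylesterase gene ATPMEPCRB, for example, had a log2 difference of -1.48 (SE 0.54, limma adjusted p = 0.130).

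Green-tissue transcripts had lower means in dorn1-1 in ATP, but 0 of them passed. The 9 nuclear genes for photosynthesis, among them PSBY, RCA and LHCB4.1, averaged 11.44, 10.57 and 11.35 in the wild-type ATP arrays and 10.79, 10.01 and 10.59 in the dorn1-1 ATP arrays. All 9 had a negative difference, between -0.92 and -0.43, and 0 passed, also at an unadjusted p under 0.05. The means overlapped, because wild-type replicate 2 lay below dorn1-1 replicates 1 and 3, and the gap of -0.65 had a two-sided exact permutation p = 0.3, where 0.1 is the smallest possible. The 69 genes of the plastid genome had a median of -0.42 with 0 passing and 1 lower at an unadjusted p under 0.05, and their mean differed by -0.44 (exact permutation p = 0.2). When the mean of the 9 nuclear photosynthesis genes entered the fit, 1481 probe sets passed, 925 higher and 556 lower. Cytosolic ribosomal protein genes then had 65 of 128 higher with a median of 0.44, and TIR-domain genes 16 of 71 lower with a median of -0.23. As signs of RNA quality, the signal of 3′ minus 5′ probe sets differed between genotypes in ATP by -0.08 for GAPDH and 0.36 for actin (exact permutation p = 0.6 and 0.2), and the part of RNA quality in the results was not tested.

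The calls were spread over the genome. On chromosomes 1 to 5 the share of named genes that was higher in dorn1-1 lay between 3.76% (chromosome 2) and 5.31% (chromosome 3), and the share that was lower between 1.65% (chromosome 4) and 1.94% (chromosome 5). Of the 1065 higher probe sets 605 list exactly 1 gene, and of the 454 lower ones 243 do, so the classes above leave out the rest of those that passed.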

How the data were processed

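Biotin-labelled root RNA was measured on 12 one-colour arrays, 3 in each of 4 groups. Per the submitters' processing notes, the deposited log2 values come from RMA and affy. The sources used here do not give tool versions or say whether all arrays were processed as one set. RMA equalises array distributions, so a shift shared by most transcripts is not seen, and it compresses differences of dim probe sets. No detection calls were used.

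A limma model (version 3.58.1, R 4.3.3) estimated the mean of each of the 4 groups from 12 arrays, with empirical Bayes moderation and Benjamini-Hochberg adjustment over all 22746 probe sets within each contrast (threshold 0.05). The dorn1-1 and wild-type ATP comparison used 6 of these arrays, and the spread came from all 12. Single values per array used exact permutation tests. The fit was tested on simulated data first. The labels number the replicates without saying that they were separate growths, so p-values measure the spread between these pools.

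The platform annotation gives 1 gene for 13513 probe sets, several for 503 and none for 8730. Of the former, 13484 matched the RefSeq table of TAIR10.1, and 13355 genes were named, each by its probe set with the highest mean. Classes were matched by symbol, or by locus where the tables hold only locus identifiers, in which case the class and the role come from general knowledge of Arabidopsis genes. For a class matched by symbol, the number measured is that of the matched members and not the size of the family. Members and lists were chosen with earlier results of these data known. Named genes are the 20 largest differences in each direction among 1-gene probe sets that passed without overlap between arrays, and up to 4 passing members of each class, or the closest one where none passed. Genes outside this rule are named as chosen after their values were seen, apart from some members given to show the rest of a class. EFR, BIK1, EXPB1 and the ribosomal protein genes with a negative difference are of that kind, and AT5G52760 is given for its interaction.

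Deviations of same-numbered replicates from their group means correlated by 0.28, 0.23 and 0.03 in ATP and by 0.13, -0.18 and 0.20 in buffer. The main fit did not take the numbers as pairs, and a fit with a replicate block, which called 1719 probe sets in ATP, was run beside it. The alternatives were other scalings, a filter on dim probe sets, other moderation, array weights, a replicate block, a fit of 6 arrays, probe sets of plain type, a photosynthesis covariate and omission of each array. Sequences and promoter motifs were not used here. Figures were drawn with matplotlib 3.10.9.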

Additional observations from a re-analysis of the deposited data

Results flagged for a closer look

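In 2 genes the genotype difference in ATP differed from that in buffer by the test of the difference itself. AT5G52760 had an interaction of -2.30 on the log2 scale, with dorn1-1 lower than wild type in ATP in all 3 arrays and higher in buffer in all 3. AT3G02840 had an interaction of -1.56, with dorn1-1 lower in ATP in all 3 arrays and overlap in buffer.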

How the results depend on the processing

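The count of probe sets that differed between genotypes in ATP (1519) lay between 1409 and 1719 under the other scalings, the filter, other moderation, the 6-array fit, plain probe sets, the photosynthesis covariate and the replicate block (1719), and was 3067 with array weights. Leaving out 1 array gave 272 to 2643. The interaction count (2) was 1 with the filter or the replicate block, 6 with array weights and 4 with the covariate, and 1 to 3 without 1 array. The buffer count (15) was 28 with cyclic loess, 8 with the filter, 2568 with array weights, 24 with the replicate block and 338 with the covariate, and 2 to 315 without 1 array, the highest without dorn1-1 buffer replicate 1. The photosynthesis difference lay between -0.93 and -0.43 without 1 array. Of 101 named genes 88 passed, and 0 changed direction under any alternative run. Of the 88, 53 missed the threshold in at least 1 fit without an array and 18 in at least 1 other alternative, while 6 that had not passed did so somewhere. The cause of these shifts was not tested. The small number of arrays limits precision, signal over background is not known per probe set, and probe sets without a named gene could not be placed in classes.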
